A study of Mus musculus with 168 samples.

Results

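The striatum of adult mice breathing 8% oxygen for 3 h (H3) was compared with the striatum of control mice that had not been made hypoxic. The comparison took every probe set of the Affymetrix Mouse Expression 430 2.0 array except the manufacturer's control probe sets, and it rested on 3 H3 arrays and 3 control arrays, 6 of the 24 striatal arrays in a series of 7 brain regions, 8 groups and 3 arrays of each. The H3 animals were killed directly at the end of the exposure. All mice were C57BL/6 males of 8 to 9 weeks. The controls carry the label of time point 0 and were, per the study's methods, sham animals that sat in the same chambers with room air. The same methods give 3 mice per time point and 7 brain regions, so regions of 1 time point come from the same mice. They keep the sham mice for a further 24 h in their home cages, so the clock hour at which the controls were taken is not fixed by the labels. The other striatal groups, also with 3 arrays each, were taken after 1 h of hypoxia (H1) and at 1, 3, 6, 12 and 24 h of reoxygenation that followed 3 h of hypoxia (R1, R3, R6, R12 and R24).

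Cells sense oxygen through prolyl hydroxylases, which mark the alpha subunits of hypoxia-inducible factors (HIF) for destruction while oxygen is plentiful. When oxygen falls the HIF subunits persist, enter the nucleus, pair with a partner and bind short DNA sites beside genes for blood vessel growth, sugar use and growth arrest. Hypoxia of a whole animal also releases glucocorticoids, alters neuronal firing and slows costly processes such as protein synthesis. The striatum, the input station of the basal ganglia, consists mostly of inhibitory projection neurons. Those of the direct pathway carry the D1 dopamine receptor and those of the indirect pathway the D2 receptor and enkephalin.

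The control arrays carried the profile of striatum. All 13 measured markers shared by striatal projection neurons were brighter on every control array of striatum than on any of the 18 control arrays of the other 6 regions, as were 4 of 6 direct pathway markers and 4 of 4 indirect pathway markers. The dopamine signalling protein gene Ppp1r1b, for example, lay between 2530 and 3130 intensity units in striatum, against at most 435 elsewhere. The D1 receptor gene Drd1 lay between 1690 and 1910, against at most 262 elsewhere. None of the 23 markers was called at H3. Over all genes 0.0934% were called higher and 0.11% lower, so a list of 23 would hold few calls or none. The 13 shared markers changed by between -0.12 and 0.15 on the log2 scale. Their summed intensity was 26180 to 26470 at H3 and 23820 to 26860 in controls.

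Hypoxia of 3 h changed few striatal transcripts past the test, in both directions. Of 45037 probe sets tested, 38 were higher (0.0844%) and 52 were lower (0.115%) at H3 than in controls (limma over all 24 striatal arrays, Benjamini-Hochberg adjusted p under 0.05). These calls lean on the spread over all striatal groups. With only the H3 and control arrays in the fit 0 were higher and 0 were lower, with 2901 probe sets at an unadjusted p under 0.05. An equal-variance t-test on those 6 arrays, adjusted in the same way, gave 0 and 0 as well. The study itself applied its t-test only after an ANOVA. Changes are differences of mean log2(intensity + 16), a scale on which the change of dim transcripts is understated. On all 90 called probe sets the 3 H3 arrays lay on one side of the 3 control arrays, a separation that 11% of all probe sets showed. The higher probe sets named 25 genes and the lower ones 38 genes, while 9 higher and 14 lower probe sets had no gene symbol. With 1 probe set per gene, the brightest, 17 of 18193 genes were higher (0.0934%) and 20 were lower (0.11%). The plot of all probe sets shows the larger changes on the higher side, with H3f3b, Ddit4 and Apold1 at the smallest p-values. Intensities of whole tissue cannot tell fewer cells of a type from less RNA per cell. The calls rested on few arrays, since 13 higher and 11 lower probe sets kept their call when each of the 6 arrays was left out in turn. The genes among them were Depp1, H3f3b, Ddit4, Txnip, Apold1, Ier3, Nfkbia, Cebpd, Polr3e, Arrdc3 and Btg1 on the higher side, and Clk1, Zswim3, Sptlc1, Ube2b, Tob1, Polb, Jag1 and Ier5l on the lower, and the call of every other gene was lost without at least 1 array. Control array 2 mattered most, and 15 higher and 16 lower probe sets were called without it.

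**Figure D1:**
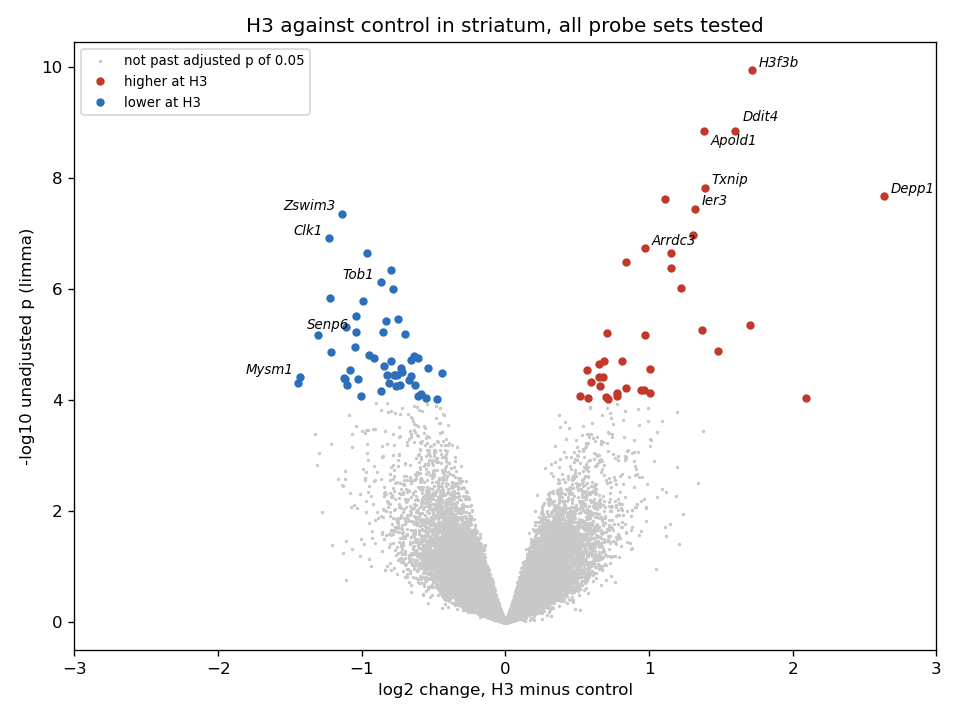
Each point is 1 of the 45037 probe sets tested in striatum, with the log2 change at H3 over control on the x axis and -log10 of the unadjusted limma p on the y axis. The 38 red points (higher at H3) reach a log2 change of 2.64 for Depp1, and the 52 blue points (lower at H3) reach -1.44 for a probe set with no gene symbol.

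The largest change of any probe set was that of Depp1, a FOXO-regulated gene tied to autophagy, with 230, 223 and 194 units at H3, against 21.3, 34.5 and 11.2 units in control striatum. The groups lay far apart, 6.23 times apart on the scale with 16 units added (log2 change 2.64, SE 0.29, adjusted p = 0.000177, limma). A second Depp1 probe set was spread more widely, with 374, 311 and 117 units at H3, against 72.1, 53.2 and 19.8 units in controls (log2 change 2.09, adjusted p = 0.0464). That second call held in 1 of the 6 leave-one-out fits.

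Ddit4 encodes an inhibitor of the growth kinase mTORC1. Its intensities were 1130, 1080 and 1090 units at H3, against 336, 338 and 385 units in controls. Both groups were tight, and the ratio of mean intensities was 3.12 (log2 change 1.60, SE 0.15, adjusted p = 2.14e-05). Txnip, the thioredoxin-binding alpha-arrestin that draws glucose transporters off the cell surface, reached 358, 389 and 369 units at H3, against 147, 99.8 and 156 units in controls. Every H3 array was above the highest control (log2 change 1.39, SE 0.15, adjusted p = 0.000167), and the second Txnip probe set was also called (1.15, adjusted p = 0.000768). Arrdc3, a relative of Txnip, had 734, 804 and 758 units at H3, against 407, 353 and 386 units in controls, with no overlap (0.97, SE 0.12, adjusted p = 0.000733).

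H3f3b gave the smallest p-value of the comparison. It encodes the replacement histone H3.3, which enters chromatin outside DNA synthesis. The intensities were 158, 116 and 148 units at H3, against 23.1, 41.8 and 31.2 units in controls, 4.41 times higher as a ratio of mean intensities, where nothing was added (log2 change 1.72, SE 0.14, adjusted p = 5.05e-06). H3f3a, the other gene for the same protein, was at -0.08 (adjusted p = 0.991). Both were read on dim probe sets, with control means of 32 units for H3f3b and 48.3 for H3f3a. Probe sets that name both genes were given to neither, and the study lists smaller rises on them at 3 h in forebrain. Polr3e, a subunit of RNA polymerase III, which makes transfer RNA and other small RNAs, had 305, 286 and 239 units at H3, against 121, 89.2 and 140 units in controls (1.15, SE 0.15, adjusted p = 0.00124). It was the only called gene among 17 measured genes of polymerase III and its factors, whose median change was -0.06. Over all genes 0.0934% were called higher and 0.11% lower. The initiation factors Brf1, Bdp1 and Brf2 had values of -0.47, -0.38 and -0.34, and none of these passed the test.

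Apold1, Ier3, Ccn1 and Vegfa were higher at H3. Apold1, an early response gene of endothelial cells, had 214, 199 and 163 units at H3, against 66.3, 63.4 and 59.5 units in controls (1.39, SE 0.13, adjusted p = 2.14e-05). Ier3, a stress-induced survival gene, had 232, 163 and 268 units at H3, against 76.3, 83.4 and 72.8 units in controls (1.32, SE 0.15, adjusted p = 0.000226). In both genes every H3 array stood clear of every control. Ccn1, a secreted matrix protein of vessel growth, had 78.5, 53.9 and 60.9 units at H3, against 29.3, 25.2 and 19.9 units in controls (0.97, SE 0.16, adjusted p = 0.00916), a call that was lost without H3 array 1 (adjusted p = 0.0539). Vegfa, the vascular endothelial growth factor and a HIF target, had 256, 286 and 225 units at H3, against 153, 157 and 140 units in controls (0.71, SE 0.12, adjusted p = 0.00916), lost without H3 array 2 (adjusted p = 0.0613).

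Sgk1, Nfkbia and Cebpd, all known to respond to glucocorticoids, were higher too. Sgk1, a kinase that regulates ion channels, had 1800, 1680 and 2110 units at H3, against 727, 524 and 925 units in controls (1.37, SE 0.22, adjusted p = 0.00902), and lost its call without control array 2 (adjusted p = 0.0785). Nfkbia, the inhibitor that holds NF-kappa-B in the cytoplasm, had 656, 645 and 536 units at H3, against 290, 232 and 304 units in controls (1.11, SE 0.12, adjusted p = 0.000177). The groups did not overlap on either gene, and 3 of the 5 Nfkbia probe sets were called. Cebpd, a transcription factor of stress and inflammation, had 125, 115 and 77.2 units at H3, against 41.5, 32.7 and 32 units in controls (1.22, SE 0.17, adjusted p = 0.00232). Outside that group, Id1, which blocks basic helix-loop-helix factors, had 255, 230 and 242 units at H3, against 131, 142 and 176 units in controls (0.65, SE 0.12, adjusted p = 0.0221).

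The remaining higher genes were Ap2a2 (a clathrin adaptor), Psme4 (a proteasome activator), Malat1 (a nuclear long noncoding RNA), Btg1, Smg5 (an RNA decay factor), Pcare, Cirbp (a cold-inducible RNA-binding protein), Rrp7a, Tma16, Snhg1 and Snhg5 (hosts of small nucleolar RNAs), with log2 changes between 0.52 and 1.01. Several of these calls stood on 1 probe set of many. Malat1 was called on 1 of 7 probe sets (0.96, adjusted p = 0.039), and the others lay between -0.72 and 0.29. Btg1, an antiproliferative gene, was called on a dim probe set (0.84, adjusted p = 0.00102), while the brighter pair was at -0.39 and -0.38. Of the 25 higher genes 16 had several probe sets, 3 of them had at least 2 called, and in 8 the brightest was not called.

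**Figure D2:**
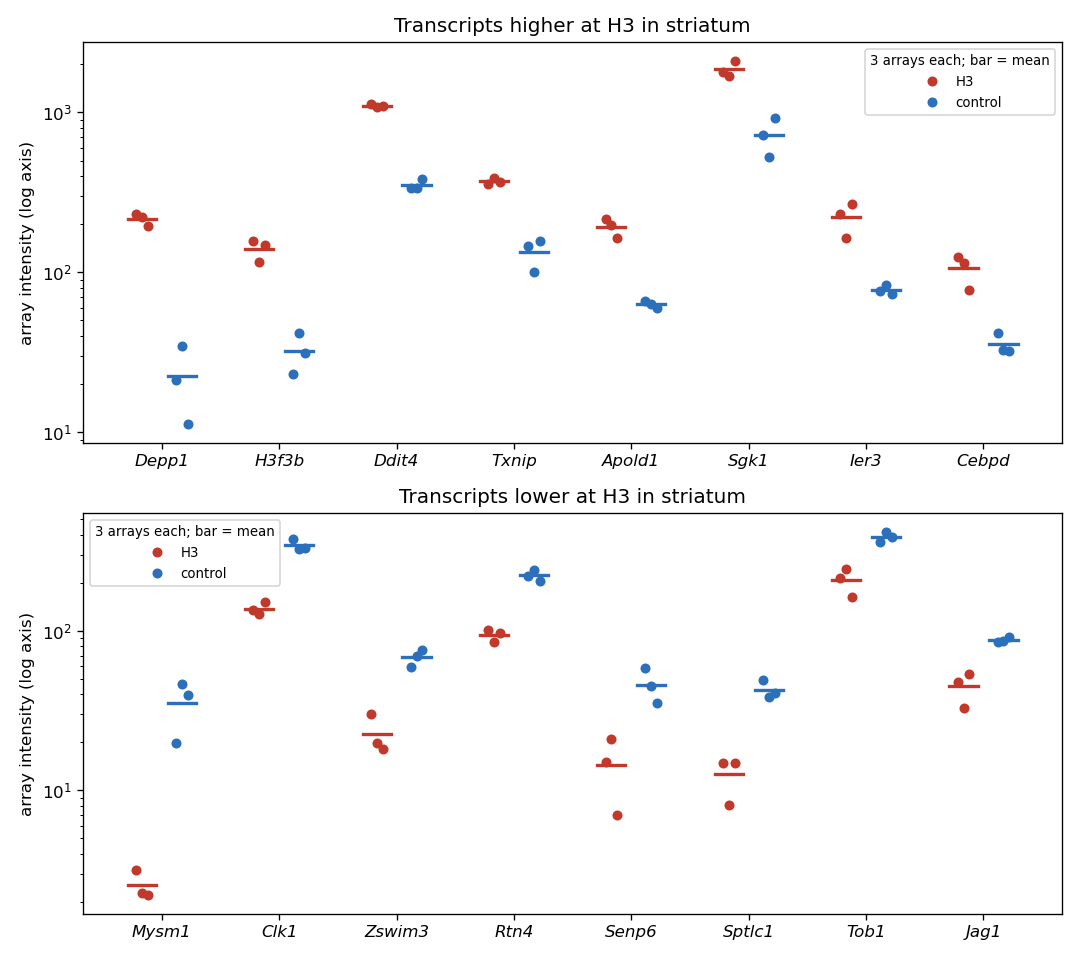
Array intensity (log axis) of 8 transcripts higher at H3 and 8 lower at H3 in striatum, with 1 point per array, 3 H3 arrays (red) left of 3 control arrays (blue), and a bar at each group mean. In every pair the red and blue points do not overlap; the widest separations are those of Depp1, between 194 and 230 at H3 against 11.2 to 34.5 in control, and Mysm1, between 2.20 and 3.16 at H3 against 19.7 to 46.5 in control.

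The windows around the starts of 5 of the higher genes are shown because letters known to be bound by HIF or by FOXO factors were found in them. Each window runs from 250 bases before the RefSeq start to 50 after it (GRCm38.p6), 5′ to 3′ on the gene's strand. Capitals mark the HIF core, ACGTG or GCGTG on either strand (CACGT or CACGC when read from the other strand), in Txnip also the FOXO letters GTAAACA, and in H3f3b also TGACG, the core of the cyclic AMP response element. Ddit4 (chr10:59951721-59952020, minus strand) held HIF cores 187 and 115 bases before the start. Txnip (chr3:96557707-96558006, plus strand) held them 160 and 51 bases before the start, with the FOXO letters at 121. Arrdc3 (chr13:80883134-80883433, plus strand) had 1, at 111, in the window shown, which is 1 of 3 for this gene. Polr3e (chr7:120917528-120917827, plus strand) had 1 at 206 bases before the start and a palindromic pair at bases 6 and 7 after it, which together spell the E-box CACGTG. H3f3b (chr11:116024455-116024754, minus strand) had 1 at 41 bases before the start, beside TGACG at 56 and 48.
Ddit4: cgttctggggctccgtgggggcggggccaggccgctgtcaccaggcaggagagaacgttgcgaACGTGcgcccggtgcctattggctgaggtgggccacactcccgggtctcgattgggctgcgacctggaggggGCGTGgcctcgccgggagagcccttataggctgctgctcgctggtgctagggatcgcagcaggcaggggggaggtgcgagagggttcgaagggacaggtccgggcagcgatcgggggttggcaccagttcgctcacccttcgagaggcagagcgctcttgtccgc
Txnip: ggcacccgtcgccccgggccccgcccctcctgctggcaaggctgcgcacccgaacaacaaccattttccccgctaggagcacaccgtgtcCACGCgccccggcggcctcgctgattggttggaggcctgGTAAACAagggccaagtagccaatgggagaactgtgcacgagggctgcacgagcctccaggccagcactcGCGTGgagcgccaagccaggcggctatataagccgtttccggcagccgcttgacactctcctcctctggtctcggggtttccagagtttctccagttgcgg
Arrdc3: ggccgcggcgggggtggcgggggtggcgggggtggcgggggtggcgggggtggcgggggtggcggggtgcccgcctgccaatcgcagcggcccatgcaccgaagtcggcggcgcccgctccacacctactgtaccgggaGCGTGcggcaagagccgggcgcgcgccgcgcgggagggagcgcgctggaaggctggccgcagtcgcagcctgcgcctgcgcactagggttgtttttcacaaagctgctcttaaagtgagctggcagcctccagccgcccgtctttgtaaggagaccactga
Polr3e: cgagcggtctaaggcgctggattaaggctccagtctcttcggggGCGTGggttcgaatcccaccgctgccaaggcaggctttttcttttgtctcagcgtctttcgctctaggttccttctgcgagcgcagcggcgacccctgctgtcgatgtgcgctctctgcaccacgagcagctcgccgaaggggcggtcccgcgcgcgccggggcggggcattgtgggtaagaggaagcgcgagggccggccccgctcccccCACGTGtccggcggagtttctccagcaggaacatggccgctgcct
H3f3b: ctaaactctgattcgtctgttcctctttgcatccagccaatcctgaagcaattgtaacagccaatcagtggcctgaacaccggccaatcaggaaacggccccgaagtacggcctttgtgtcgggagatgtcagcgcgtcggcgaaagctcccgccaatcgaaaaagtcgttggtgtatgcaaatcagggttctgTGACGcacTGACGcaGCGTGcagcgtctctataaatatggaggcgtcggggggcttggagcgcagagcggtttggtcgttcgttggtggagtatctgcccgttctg

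Such letters are frequent near the starts of genes. Some genes have several starts and so several windows, and a gene was counted if any of its windows held the letters. A HIF core was found for 21 of the 23 higher genes with a window (91.3%) and for 21 of 31 lower genes (67.7%). The share was 59.3% of the 14452 array genes with a window and 46.7% of all 27025 genes with a window. In the window of each gene with the most CG pairs, the median was 24 pairs in higher genes, 25 in lower genes and 18 in all array genes. Base composition thus moved with both called groups. Its part in the counts, and that of the number of windows, was not tested. The windows of Depp1 and Nfkbia held no HIF core. The FOXO letters were in 2 of 23 higher genes (8.7%), against 3.4% of array genes, TGACG in 11 of 23 (47.8%), against 30%, and the letters of AP-1 (TGAGTCA or TGACTCA) in 0 of 23, against 5.33%.

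Of the lower genes, Zswim3 and Clk1 had the smallest p-values. Clk1, a kinase that phosphorylates splicing factors, had 135, 127 and 151 units at H3, against 376, 325 and 332 units in controls. No H3 array came near a control (log2 change -1.23, SE 0.15, adjusted p = 0.000534). Zswim3, a zinc finger gene of unknown role, had 30, 19.7 and 18.2 units at H3, against 59.2, 69.8 and 76.4 units in controls (-1.14, SE 0.13, adjusted p = 0.000246). The largest fall of a named gene was on a Mysm1 probe set, for a histone H2A deubiquitinase, with 3.16, 2.26 and 2.20 units at H3, against 19.7, 46.5 and 39.6 units in controls (-1.43, SE 0.27, adjusted p = 0.0282). That level at H3 was below the 16 units added before taking logs, and the other Mysm1 probe sets were at 0.00 and -0.22.

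Tob1, an antiproliferative protein that recruits the machinery for shortening mRNA tails, had 215, 244 and 164 units at H3, against 361, 419 and 385 units in controls (-0.87, SE 0.12, adjusted p = 0.00198). Jag1, a ligand of Notch receptors, had 48.1, 33.0 and 53.6 units at H3, against 85.4, 85.9 and 91.8 units in controls (-0.78, SE 0.11, adjusted p = 0.00238). Groups were apart for both genes. Ube2b, a ubiquitin-conjugating enzyme of DNA damage tolerance, had 82.3, 90.5 and 78.5 units at H3 on one probe set, against 169, 188 and 178 units in controls (-0.96, SE 0.12, adjusted p = 0.000768). The brightest pair of its probe sets, however, was at -0.01 and -0.07. Sptlc1, a subunit of the enzyme that starts sphingolipid synthesis, had 14.9, 8.16 and 14.8 units at H3, against 49.0, 38.3 and 40.8 units in controls (-1.04, SE 0.16, adjusted p = 0.00629). That level at H3 was below the 16 units added before taking logs, and the other, mostly brighter, Sptlc1 probe sets were at 0.02, 0.10 and 0.03.

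Rtn4, which encodes the Nogo inhibitor of axon growth, had 101, 85.4 and 97.2 units at H3, against 221, 241 and 205 units in controls (-1.11, SE 0.18, adjusted p = 0.00822). This was 1 of 5 probe sets, and the brightest pair was at 0.02 and 0.09. The same held across the lower genes. Of 38 genes, 28 had several probe sets, none of their 64 other probe sets was called, and in 18 the brightest was not called. Such probe sets read different stretches or forms of a transcript, and which form fell was not tested. Cited2, a co-regulator that competes with HIF for p300, had 323, 253 and 344 units at H3, against 437, 501 and 533 units in controls (-0.66, SE 0.12, adjusted p = 0.0202), and lost its call without H3 array 2 (adjusted p = 0.114). Sox18, a transcription factor of vessel endothelium, had 44.1, 41.3 and 27.6 units at H3, against 83.2, 85.0 and 91.6 units in controls (-0.95, SE 0.17, adjusted p = 0.0185). Both genes had no overlap between groups.

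Other lower genes lay between -1.12 and -0.44. They included the RNA-binding proteins Mex3b (-1.12), Tra2a (-0.85), Rbmx (-0.81) and Hnrnpdl (-0.79), and the transfer RNA methyltransferase Trmt13 (-1.10). Polb (-0.83), Lig4 (-0.70) and Hus1 (-0.44) act in DNA repair or its checkpoint. Mycn (-0.91) is a growth-promoting transcription factor, Senp6 (-1.04) removes SUMO chains, Ints6 (-0.85) belongs to the Integrator complex, and Slc38a2 (-0.72) carries neutral amino acids. Zinc finger genes among them were Zkscan3 (-1.02), Zmym1, Zfp113 (-0.76), Zc3h6 (-0.76), Zfp40 (-0.72), Zfp563 (-0.54) and Zfp866 (-0.48). Mex3b, Trmt13, Lig4, Hus1 and Mycn were called on their only or brightest probe set. For others a brighter probe set was not called, at -0.04 for Tra2a, 0.03 for Rbmx, 0.15 for Hnrnpdl and -0.05 for Senp6. It was at 0.09 for Ints6, -0.19 for Slc38a2, -0.08 for Zkscan3 and -0.26 for Zfp40. The brighter pair of Polb was at 0.15 and -0.04.

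The pathway lists held 1136 measured genes, represented by their brightest probe sets, of which 14 were higher and 9 lower. Over all genes the shares were 0.0934% higher and 0.11% lower, but the lists were chosen with earlier results of these data known, so their counts are a description. The median change over all 18193 genes was 0.00. Of 40 known HIF-1 targets, 2 were higher (Ddit4 and Vegfa), 1 was lower (Cited2) and the median was 0.13. Adm, the vasodilator adrenomedullin, had 103, 84.0 and 82.9 units at H3, against 33.8, 21.7 and 22.7 units in controls. These groups were apart too, yet its change of 1.34 (SE 0.40) did not pass over the striatal arrays (adjusted p = 0.278). The cell-cycle inhibitor Cdkn1a (0.74, adjusted p = 0.0752) and the repressor Bhlhe40 (0.77, adjusted p = 0.169) did not pass either. No gene of 32 for glycolysis and sugar transport was called (median 0.09), and none of 42 for the respiratory chain (median 0.05).

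The next counts stand beside the same shares over all genes, 0.0934% higher and 0.11% lower. These lists too were chosen with earlier results of these data known, so the counts are a description. Of 6 alpha-arrestins, Txnip and Arrdc3 were higher and the median was 0.54. Arrdc2 was at 0.67 (adjusted p = 0.0694) and Arrdc4 at 0.40 (adjusted p = 0.362). Of 27 glucocorticoid-induced genes, 4 were higher (Ddit4, Sgk1, Cebpd and Nfkbia), none was lower and the median was 0.29. The classical responders Fkbp5 and Per1 had values of -0.02 and -0.26 and did not pass. Of 22 FOXO targets and family members, Depp1 and Txnip were higher, Cited2 was lower and the median was 0.06. Of 18 Notch pathway genes, Jag1 and the co-activator Maml1 (-0.63, adjusted p = 0.0186) were lower, and the median was -0.02. The target gene Hes5 was at -0.73 (adjusted p = 0.068) on its brightest probe set and was called on another (-0.74, adjusted p = 0.0339), whereas Hes1 was at 0.56 (adjusted p = 0.2). On these probe sets only Clk1 of 40 splicing factors was called, and of 24 heat shock genes none was (median -0.10).

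**Figure D3:**
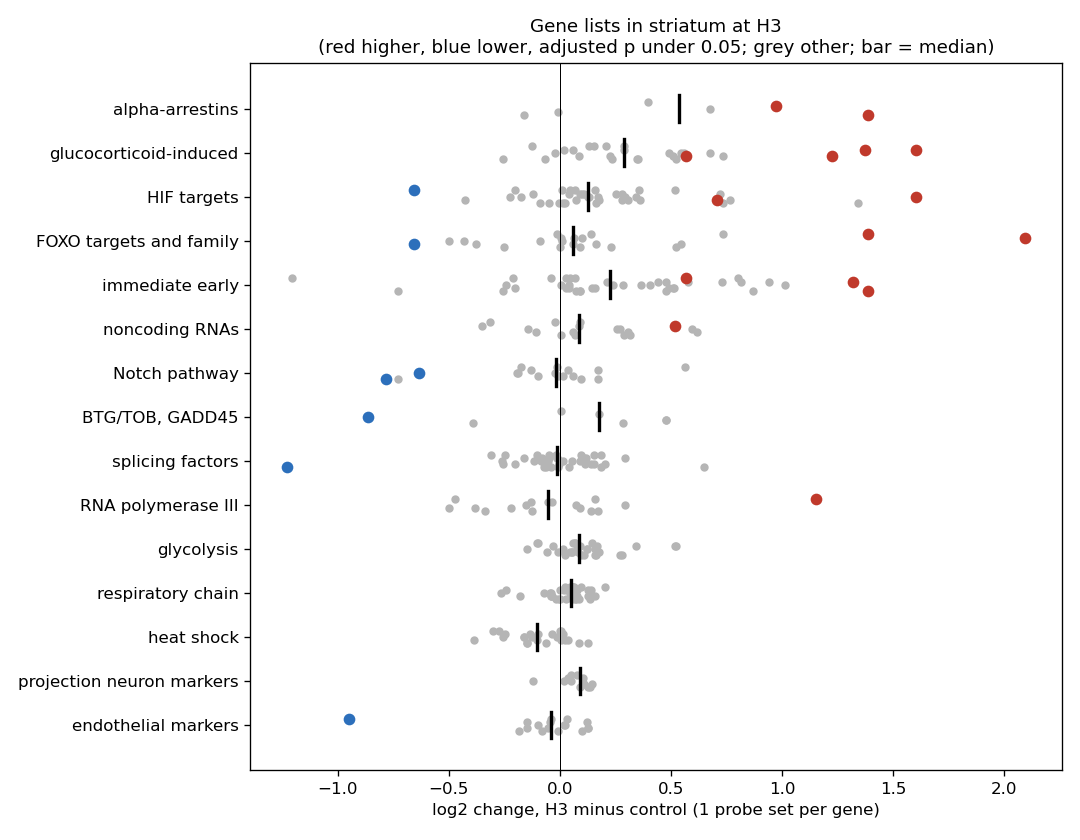
Log2 change at H3 over control in striatum for the measured genes of 15 lists, 1 point per gene (its brightest probe set), with a bar at each list's median and colour for genes past the test (red higher, blue lower). List medians stay between -0.10 (heat shock) and 0.54 (alpha-arrestins), and most members of every list are grey, with no call.

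Immediate early genes are transcribed within minutes of stimulation in neurons and other cells. Few of them passed the test, though their median change lay above that of all genes. Of 40 measured, Apold1, Ier3 and, on its brightest probe set, Nfkbia (0.57, adjusted p = 0.0252) were higher and none was lower. Over all genes the shares were 0.0934% higher and 0.11% lower. The median change of the list was 0.23, and most members lay above 0. Fos had 287, 249 and 259 units at H3, against 80.9, 258 and 121 units in controls (0.87, SE 0.39, adjusted p = 0.631). Arc, an activity-regulated synaptic gene, had 79.8, 66.0 and 36.0 units at H3, against 87.1, 416 and 97.1 units in controls (-1.21, SE 0.55, adjusted p = 0.642). On both genes control array 2 stood far above the other controls. It was the highest control for 28 of the 40 genes, and its summed intensity over them was 13890, with 13670, 12780 and 12890 on the H3 arrays, and 10020 and 10810 on the other control arrays. Without control array 2, an alternative chosen for these genes after seeing the data, again 3 of the 40 were called (Apold1, Ier3 and Fosb at 0.79, adjusted p = 0.0327) and Nfkbia was not (adjusted p = 0.141). The change of Fos was then 1.28 (adjusted p = 0.394), and that of Arc was -0.54 (adjusted p = 0.976).

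No marker on the lists of striatal neuron genes passed the test at H3. Over all genes the shares called were 0.0934% higher and 0.11% lower. Marker lists of this size would thus hold few calls or none, and their counts are a description. Drd1 had 1680, 1590 and 2150 units at H3, against 1910, 1790 and 1690 units in controls (0.00, SE 0.13, adjusted p = 0.999). Penk, the enkephalin precursor of the indirect pathway, had 3800, 4190 and 4260 units at H3, against 3620, 3970 and 3970 units in controls (0.08, SE 0.09, adjusted p = 0.957). The groups overlapped on both genes. The muscarinic receptor gene Chrm4, dim on this array, had 11.4, 42.2 and 11.8 units at H3, against 74.2, 51.6 and 43.6 units in controls (-1.01, SE 0.51, adjusted p = 0.713), without overlap. It was as far below controls at H1 (-1.15) and R1 (-1.06), and neither passed. Array 2 was the brightest for Chrm4 in every hypoxia and reoxygenation group, though not in controls. Gpr6, a bright indirect pathway marker, had 800, 727 and 834 units at H3, against 970, 1080 and 952 units in controls (-0.34, adjusted p = 0.279), also without overlap. At R1 Gpr6 was called lower than in controls (-0.62, adjusted p = 0.00701, limma). Of the 10 interneuron markers none was called. Sox18 was the 1 called gene of 17 endothelial markers, whose sum was 1576 to 1834 at H3 and 1683 to 1888 in controls. None of 11 astrocyte, 12 microglial and 14 oligodendrocyte markers was called.

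Tissue next to the striatum can be cut with it, and markers of it were read for that. None of 10 markers of cortical glutamatergic neurons was called, where over all genes 0.0934% were called higher and 0.11% lower. Of the 10, however, 9 were above 0 with a median of 0.28. The sum of the 10 was 2637 to 2914 at H3 and 1922 to 2625 in controls, without overlap. The sum of 11 choroid plexus markers was 555.7 to 2179 at H3 and 540.5 to 1368 in controls. The part of either in the results was not tested.

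The H3 profile was then set against the time points beside it. At H1, 11 probe sets differed from controls, and 9 differed between H3 and H1 when the difference itself was tested (0.02%), 3 higher and 6 lower at H3. Depp1 was already high after the first hour, with means of 22.3 units in controls, 241 at H1 and 216 at H3, and its H3 minus H1 difference of -0.12 did not pass (adjusted p = 1). Txnip and Polr3e rose later. The means of Txnip were 134 units in controls, 184 at H1 and 372 at H3 (H3 minus H1 0.97, adjusted p = 0.0217). For Polr3e they were 117 units in controls, 122 at H1 and 277 at H3 (H3 minus H1 1.09, adjusted p = 0.0197). A probe set with no gene symbol behaved likewise, with means of 7.83 units in controls, 9.98 at H1 and 59.7 at H3 (H3 minus H1 1.61, adjusted p = 0.0465).

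Jag1 was lower at H3 than at H1 by the smallest p of this contrast, with 48.1, 33.0 and 53.6 units at H3, against 117, 102 and 97.8 units at H1 (-1.01, SE 0.11, adjusted p = 0.000968). Sptlc1 on its 1 called probe set (-1.11, adjusted p = 0.0197), Clk1 (-0.96, adjusted p = 0.0217) and Zswim3 (-0.84, adjusted p = 0.0217) were also lower at H3 than at H1. Klf2, a transcription factor of endothelium that responds to flow, had 83.5, 74.3 and 75.7 units at H3, against 162, 156 and 169 units at H1 (-0.93, adjusted p = 0.0217). Its control arrays had 62.1, 73.1 and 101 units, so the level at H3 was within the control range. Without H3 array 2, or without H1 array 2, 1 probe set was called between these times.

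After 1 h back in room air, 59 probe sets differed from H3 (0.131%), 24 higher and 35 lower at R1, and 192 differed from controls. Of the 38 probe sets higher at H3, 8 differed at R1 from H3, and of the 52 lower ones 15 did. These were picked on the same H3 arrays, which favours a difference back toward control, so the 2 counts are a description. Depp1 had means of 216 units at H3 and 34.8 at R1 (R1 minus H3 -2.34, adjusted p = 0.00117), and H3f3b means of 141 units at H3 and 27.2 at R1 (-1.86, adjusted p = 1.28e-06). Both had thus left their H3 level. Ier3 had means of 221 units at H3 and 94.5 at R1 (-1.07, adjusted p = 0.00368). Edn1, the vasoconstrictor endothelin precursor, had means of 73.6 units at H3 and 15.4 at R1 (-1.53, adjusted p = 0.0339). Its control mean of 38.5 units lay between them. Against controls Edn1 passed in limma neither at H3 (0.72, adjusted p = 0.529) nor at R1 (-0.81, adjusted p = 0.299).

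For other genes the difference between R1 and H3 did not pass. Polr3e had means of 277 units at H3 and 278 at R1 (0.01, adjusted p = 1), and Vegfa 256 units at H3 and 281 at R1 (0.13, adjusted p = 0.95). Of the lower genes, Tob1 had means of 208 units at H3 and 423 at R1 (0.98, adjusted p = 0.00117), and Senp6 14.4 units at H3 and 52.0 at R1 (1.19, adjusted p = 0.00404). Jag1 had means of 44.9 units at H3 and 51.1 at R1, a difference that did not pass (0.16, adjusted p = 0.903). The largest rise after reoxygenation was on a probe set of Zdhhc6, a palmitoyltransferase, with means of 26.2 units at H3 and 114 at R1 (1.66, adjusted p = 0.0395). From R3 on, the plot by time shows group means of H3f3b, Ier3 and Depp1 near those of controls. The second Depp1 probe set stayed apart, with means of 48.4 units in controls, 107 at R3, 101 at R6, 163 at R12 and 156 at R24.

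**Figure D4:**
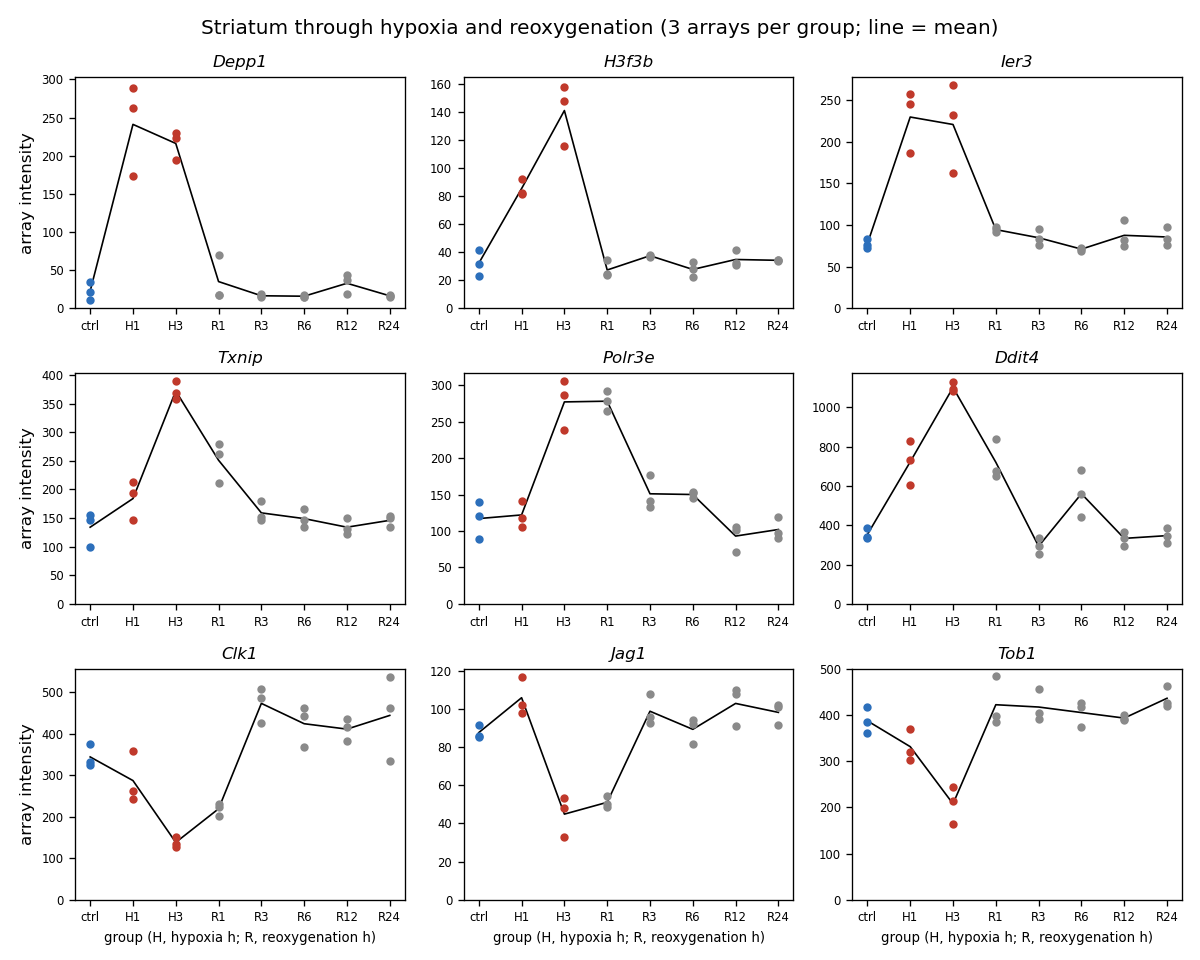
Array intensity of 9 transcripts in striatum by group (control, H1, H3, R1, R3, R6, R12 and R24), with 1 point per array (3 per group; blue control, red hypoxia, grey reoxygenation) and a line through the group means. Depp1 is high at H1 (mean 241) and H3 (216) and low at R1 (34.8), Txnip has its highest mean at H3 and Polr3e means of 277 at H3 and 278 at R1, and Clk1, Jag1 and Tob1 have their lowest mean at H3.

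The called probe sets were read in the other regions, whose arrays come from the same mice. Of the 38 higher probe sets 35 were above 0 in all of cortex, hippocampus, thalamus, midbrain, pons and medulla, and cerebellum, and 12 were called in each of them, among them those of Depp1, H3f3b, Ddit4, Txnip, Ier3, Polr3e and Arrdc3. Of the 52 lower probe sets 44 were below 0 in all 6. Over all probe sets with a change above 0 in striatum 7.74% were above 0 in all 6, and over those below 0 in striatum 10.5% were below. Among the lower ones only that of Clk1 was called in all 6, and 26 were called in no other region, against 12 of the higher ones. No share over all probe sets stands beside these counts of calls, so they are a description. A call in striatum without a call elsewhere is no difference, so the difference was tested over the arrays of all 7 regions. The change in striatum differed from the mean change of the other 6 regions for 4 of 45037 probe sets (0.00888%).

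Egr1, an activity-induced transcription factor, for which striatum stayed level while most regions rose. Striatum had 2510, 2010 and 2480 units at H3, against 1820, 2850 and 2220 units in controls (0.04, SE 0.17, adjusted p = 0.995). Cortex was at 0.11 (adjusted p = 0.982), and the other 5 regions lay between 0.71 in cerebellum and 1.44 in midbrain, all called. Striatum and cortex were also the regions with the brightest control arrays. The control arrays of thalamus, for example, had 475, 418 and 438 units. The difference between striatum and the mean of the other 6 was -0.91 (SE 0.17, adjusted p = 0.00836), and it was lost without control array 2, which stood high for immediate early genes (-0.75, adjusted p = 0.19), or without H3 array 2 (adjusted p = 0.063).

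Ankrd9, an ankyrin repeat protein gene, had 5.81, 4.81 and 3.59 units in striatum at H3, against 33.3, 24.2 and 30 units in striatal controls, while the other regions changed by between -0.55 and 0.40 (difference -1.05, SE 0.21, adjusted p = 0.0198). The B230308N11Rik transcript had 209, 265 and 247 units in striatum at H3, against at most 186 units on a control array, and the other regions lay between -0.14 and 0.04 (difference 0.45, SE 0.09, adjusted p = 0.013). A probe set with no gene symbol had 117, 86.4 and 123 units at H3, against 60, 58.3 and 69.7 units in controls, and was below 0 in each other region, between -0.76 and -0.07 (difference 1.10, SE 0.16, adjusted p = 3.21e-05). None of these 3 was called in striatum alone. Against cortex 1 probe set differed (0.00222%), of G630016G05Rik, with 34.4, 43.4 and 46.4 units in striatum at H3, against 24.0, 24.5 and 20.1 units in controls (0.56 in striatum and -0.60 in cortex, difference 1.16, SE 0.21, adjusted p = 0.00875). Against hippocampus none differed (0%) in limma, where 1785 probe sets had an unadjusted p under 0.05. The lower gene Zswim3 was at -1.14 in striatum and between -0.46 and -0.04 elsewhere. Sptlc1, on its 1 called probe set, was at -1.04 in striatum and between -0.25 and 0.37 elsewhere. Neither was called elsewhere, but neither passed the test of the difference, with an adjusted p of 0.307 for Zswim3 and 0.239 for Sptlc1.

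**Figure D5:**
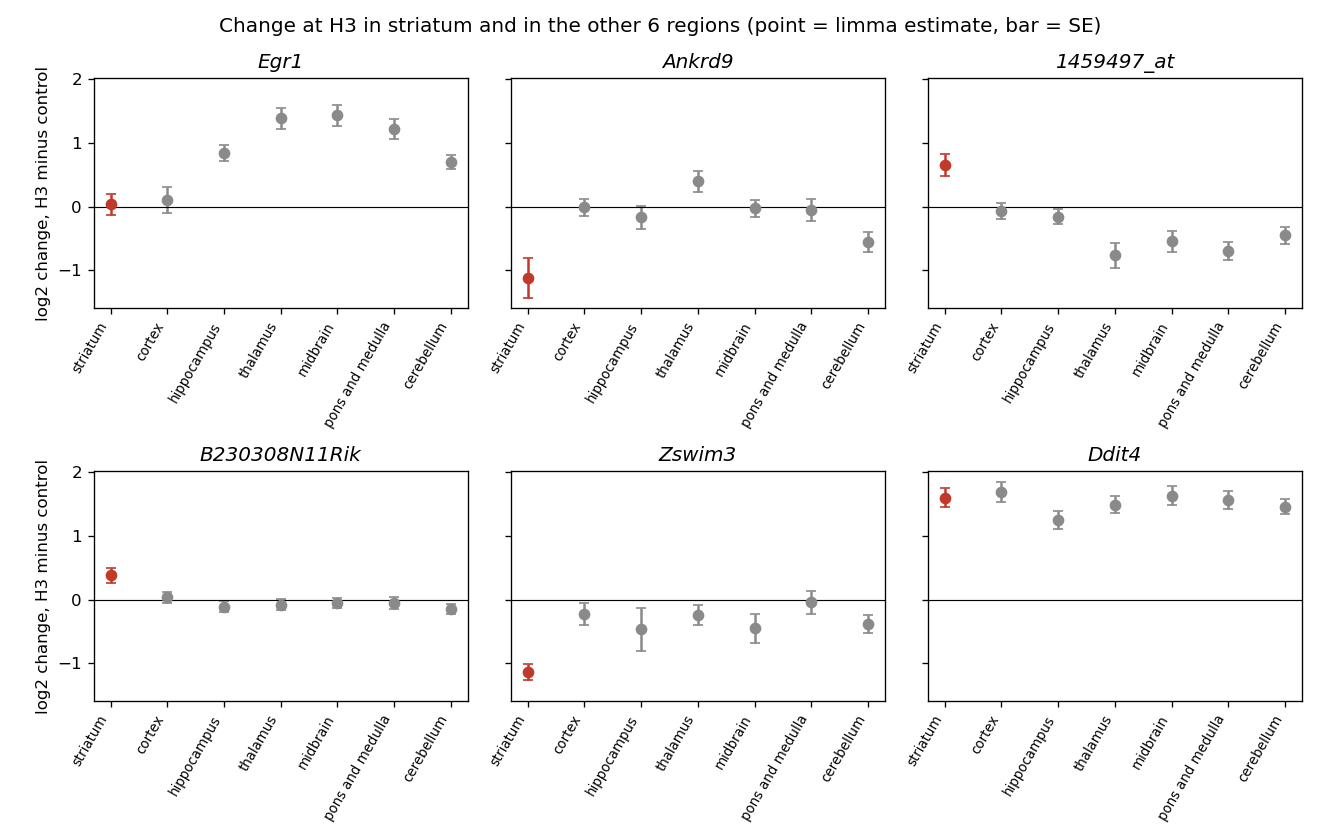
Log2 change at H3 over control, with its SE, for 6 transcripts in striatum (red, left) and in the other 6 regions (grey), each region fitted on its own arrays. Egr1 is at 0.04 in striatum and up to 1.44 in midbrain, the probe set with no gene symbol, titled by its array ID, is above 0 only in striatum, and Ddit4, at 1.60 in striatum, is between 1.25 and 1.69 elsewhere.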

How the data were processed

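Striatal RNA was hybridised to Affymetrix Mouse Expression 430 2.0 arrays. The deposited table holds linear intensities, 1 per probe set and array, which the authors made with GCOS 1.3 per the submitters' processing notes. Every array had a mean of 125 after trimming 2% at each end, unlike the GCRMA values the methods describe, so the values analysed are not those behind the study's own tests. They ran from 0.0117 to 8601.

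From these, 16 was added, log2 was taken, 64 control probe sets of 45101 were left out, and limma 3.58.1 (R 4.3.3) was fitted to 8 groups of 3 arrays. Differences between regions were fitted over 168 arrays with the mouse, taken as 1 number within 1 time point, as a random block (correlation 0.0369). The labels number replicates without saying that a number is a mouse. The platform annotation gave 1 symbol for 34945 probe sets, several for 932 and none for 9160, and symbols were updated where the reference allowed. Of the named genes, 15 in each direction have the largest called changes. The others are called list members, up to 3 bright members per list that were not called, striatal markers, the called region differences and the 4 largest time differences each way. Chrm4, Adm, Arc, Fos and other members given as values were chosen after their values were seen. The probe sets of highest mean over the 168 arrays represent genes in lists. The members and lists were chosen with earlier results of these data known. Promoters came from RefSeq, for 23 of 25 higher and 31 of 38 lower genes. On the 24 striatal arrays the Gapdh 3'/5' ratio was 0.679 to 0.79, and 24.4% to 27.4% of the values lay below 16. Arrays have no depth in reads, and their number limits the precision. Alternatives were another pseudocount, quantile normalization, median centring, brighter probe sets, a trended robust fit and a replicate block. Others were the 6 arrays alone, an equal-variance t-test on them, the study's rule, and leaving out each array. The fit was tested on simulated data of 45037 probe sets in the same groups, with changes put into the brighter ones. For H3 minus control it called 100 of 100 changes of 2 and 82 of 100 changes of 1 on the log2 scale, with 6 unchanged probe sets called. For the difference between regions, simulated on 4000 probe sets, it called 100 of 100 changes of 2 and 0 unchanged ones. The simulated noise was normal and independent between arrays, with an SD for each probe set. It held no structure by replicate number, so the simulation does not speak to such structure in the real arrays.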

Additional observations from a re-analysis of the deposited data

Results flagged for a closer look

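The change at H3 in striatum minus its mean over the other 6 regions was tested directly, and 4 transcripts passed. Egr1 differed by -0.91 (adjusted p = 0.00836), Ankrd9 by -1.05 (adjusted p = 0.0198), the B230308N11Rik transcript by 0.45 (adjusted p = 0.013) and a probe set with no gene symbol by 1.10 (adjusted p = 3.21e-05). Of the 4, only the difference of the probe set with no symbol held in every leave-one-out fit. That of Egr1 was lost without H3 array 2 (adjusted p = 0.063) and without control array 2 (0.19). Ankrd9 was lost at a pseudocount of 32 (adjusted p = 0.164), without H3 array 3 (0.191) and without control array 1 (0.0952). B230308N11Rik was lost with arrays centred on their median (0.214), without H3 array 2 (0.147), without H3 array 3 (0.145) and without control array 1 (0.0952). The level of Ankrd9 at H3 in striatum, 3.59 to 5.81 units, lies below the 16 units added before taking logs.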

How the results depend on the processing

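Of 38 higher and 52 lower transcripts, none changed direction under any alternative. On all 90 the 3 H3 arrays lay on one side of the 3 control arrays. Leaving out an array or changing the pseudocount therefore could not reverse a direction, and the unchanged directions are no support for the calls. The calls themselves were less stable, and 61 of the 90 were lost without control replicate 2. With only the H3 and control arrays in the limma fit 0 and 0 were called (2901 in both directions at an unadjusted p under 0.05). An equal-variance t-test on those arrays gave 0 and 0 after Benjamini-Hochberg adjustment (2601 at an unadjusted p under 0.05). Leaving out 1 array gave 15 to 32 higher and 16 to 45 lower, the lowest without control replicate 2. The other scalings, filters and pseudocounts gave 26 to 42 higher and 44 to 68 lower, and the study's rule gave 49 and 60, of which 27 and 40 were shared. The replicate block gave 54 higher and 80 lower, 12 for H3 against H1 and 93 in place of 59 for R1 against H3. Same-numbered H3 and control arrays had correlations of 0.162, 0.035 and 0.084 in their deviations, and each of the 3 H3 arrays correlated best with the control of its number. The main fit did not take the numbers as pairs, and it leaves any structure by number in the spread. The first component of the deviations put all 8 number-3 arrays on one side with 1 number-2 array, and the cause was not tested. The 9 differences between H3 and H1 became 14 with arrays centred on their median, 17 with brighter probe sets only and 17 with a trended robust fit, and 1 to 9 with an array left out. Those between R1 and H3 became 21 to 85 with an array left out. The 4 between striatum and the other 6 regions became 3 to 23 with an array left out, the 1 against cortex 0 to 3, or 0 with brighter probe sets only, and the 0 against hippocampus 0 to 4. The 23 called list genes became 19 to 31. With 3 arrays per group, intensities near background limit what could be called, since 5 higher probe sets had control means below 16 units and 10 lower ones had H3 means below it.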

Other observations

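Genes whose symbol is Zfp and a number, zinc finger transcription factors for the most part, were read as a list of 305. Of these 3 were lower at H3 (Zfp113, Zfp563 and Zfp866), none was higher (0.11% lower and 0.0934% higher over all genes), 98 were above 0 (32.1%, against 51.3% of all genes), and the median change was -0.08, against 0.00 over all genes. At an unadjusted p under 0.05, 46 were lower (15.1%, against 3.81% of all genes) and 6 were higher (1.97%, against 3.2%). The list was chosen with results known. Their summed intensity was 33110 to 33930 at H3 and 35490 to 36250 in controls, without overlap. No ribosomal protein gene of 46 was called (median 0.08).

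Among probe sets with no gene symbol, the one with the largest rise had 58.7, 57.2 and 63.1 units at H3, against 14.1, 1.64 and 7.70 units in controls (log2 change 1.70, adjusted p = 0.00805, limma), and it was called in all 6 other regions. The one with the largest fall had 41.4, 11 and 18.5 units at H3, against 95.8, 81.7 and 81.7 units in controls (-1.44, adjusted p = 0.032), and was called in none of them.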
